A study of Mus musculus with 6 samples.

Results

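The Zfp-named zinc finger genes are the mouse genes whose symbol is Zfp followed only by digits. They were taken from the array's annotation as all probe sets with that 1 gene symbol, leaving out Zfp36, whose protein binds mRNA through another kind of finger. This gave 156 genes with 231 probe sets, of 12393 genes and 22626 probe sets in all. Each gene was represented by the probe set with the highest mean over the 6 arrays. Expression had been measured in LSK cells, the bone marrow fraction without lineage markers and with Sca-1 and Kit, where haematopoietic stem cells and early progenitors are found. There were 3 samples labelled Gfi1 knockout and 3 labelled wild type, numbered 5, 7 and 8 in both groups, with 1 single-colour Affymetrix array for each. The comparison asks which transcripts change genome-wide when Gfi1 is missing. The labels name neither the knockout allele, nor the strain, age or sex, nor whether a sample was 1 mouse or a pool, so p-values cover only the spread among the samples given, which may be technical.

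Most Zfp genes encode proteins with rows of C2H2 zinc fingers, each a short loop held by a zinc ion that reads a few bases of DNA. A large share of them also carry a KRAB domain, which recruits the corepressor KAP1 (gene Trim28), and through it the histone methyltransferase SETDB1, HP1 proteins and the NuRD complex, to silence the bound DNA, often transposable elements. The family expanded by local duplication, so related genes lie next to each other and their transcripts resemble one another. Gfi1 is itself a C2H2 zinc finger repressor, and its DNA sites hold the core AATC. The Zfp symbol is only a name, however, and some members act in RNA processing, ribosome assembly or the spindle.

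As a check of the labels, the single Gfi1 probe set was read first. On the knockout-labelled arrays its signals were 692, 1163 and 1737 (numbers 5, 7 and 8, the order used throughout), while wild-type signals were 632, 608 and 723. The difference was 0.76 ± 0.28 (SE, log2; limma adjusted p = 0.148), and 1.10 without knockout 5 (limma adjusted p = 0.0354). It did not pass in the other 17 alternative fits, and over all of them it lay between 0.45 and 1.10. The targeted gene was therefore not lower in the group labelled knockout. The labels do not say which part of the gene was deleted, and a probe set elsewhere in it could not serve as a check. The group is called knockout-labelled here, and every direction rests on the labels. All 8 markers of early progenitors measured, among them Kit and Cd34, exceeded the control level on all 6 arrays. That level is the brightest bacterial spike-in probe set of an array. By limma 3 of the 8, Kit, Flt3 and Hlf, fell in the knockout-labelled samples and 0 rose, beside 2.19% of all tested probe sets called lower. Of the 8, 5 lay below 0, while Cd48, Slamf1 and Tek lay above it, at 0.61 ± 0.21, 0.38 ± 0.22 and 0.08 ± 0.25. Ly6a, which encodes Sca-1, was not analysed here. Markers of other cells were read too. On all 6 arrays 8 of 11 B and plasma cell markers and 6 of 8 erythroid markers exceeded the control level. Of 10 T and NK cell markers, 3 did. Among those above it were Ighm, Jchain, Car2 and Nkg7, while Pax5, Epb42, Cd4 and Cd8b1 exceeded it on no array. Of all probe sets, 67.0% to 74.4% exceeded it on each array, so these counts do not show whether other cells were present.

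More Zfp genes lay below than above the wild type in the knockout-labelled samples, by each measure used. Of the 156 genes, 104 passed the brightness filter and were tested. At the limma threshold (adjusted p under 0.05) 7 fell, or 6.73% of these 104, and 0 rose, while 2.19% of the 13575 probe sets tested were called lower and 1.44% higher. The 7 were Zfp53, Zfp871, Zfp959, Zfp90, Zfp113, Zfp148 and Zfp982. At an unadjusted p under 0.05, 25 members were lower and 0 higher (24.0% of the tested members), against 10.5% and 9.08% of all tested probe sets. With the label number as a block, which pairs the samples, 9 fell and 0 rose, against 3.53% and 2.36% of all probe sets.

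The whole distribution was displaced. The median difference of the 104 tested members, knockout-labelled minus wild type on the log2(signal + 16) scale, was -0.21, and the middle part of the distribution ran from -0.51 to -0.02 between its quartiles. Over all tested probe sets the median was -0.01 and the quartiles were -0.26 and 0.22. Below 0 lay 79 of the 104 members (76.0%), against 51.1% of all probe sets. A difference of -0.50 or lower was seen for 28 members and one of 0.50 or higher for 0, against 10.9% and 7.48% of all tested probe sets. With each array centred on its median, the member median was -0.16 beside 0.05 for all probe sets. Centring moves every difference by the same amount, so the gap between these medians could not change. The 52 members that did not pass the filter had a median of -0.16, with 33 below 0, and all 156 together had a median of -0.21.

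**Figure D1:**
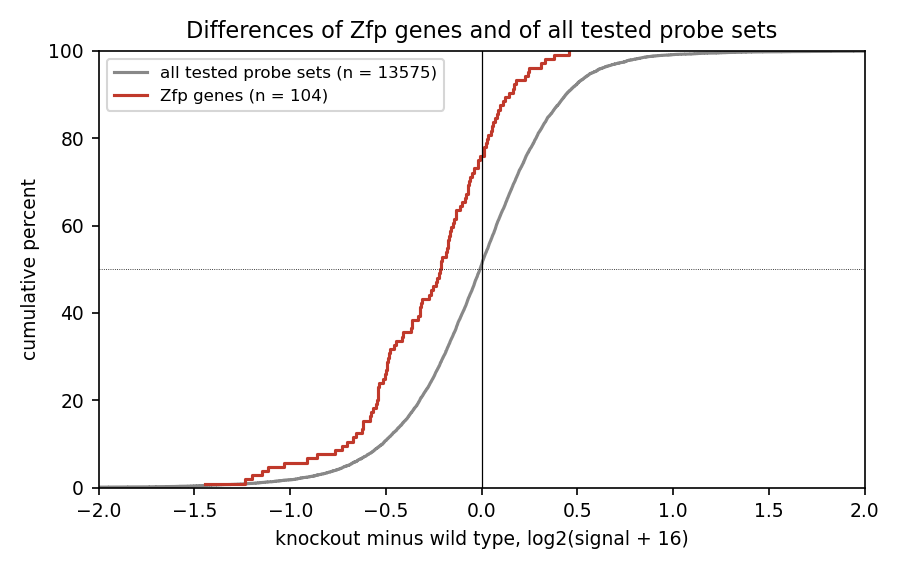
Cumulative percent of features (vertical axis) by their difference, knockout-labelled minus wild type on the log2(signal + 16) scale (horizontal axis). The curve of the 104 tested Zfp genes lies to the left of that of the 13575 tested probe sets and crosses 50% at -0.21 in place of -0.01.

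The lower level was seen on all 3 knockout-labelled arrays. The median deviation of the tested members from their 6-array mean was -0.19, -0.07 and -0.11 (log2) on knockout arrays 5, 7 and 8, and 0.08, 0.15 and 0.12 on wild-type arrays 5, 7 and 8. The same medians over all tested probe sets were 0.02, 0.03 and -0.05 on the knockout-labelled arrays and 0.02, 0.02 and 0.01 on the wild-type arrays. The 2 groups of arrays did not overlap in the member median, and knockout array 5 was the lowest. That array held the lowest of the 6 values for 38 of the 104 members, and wild-type array 7 the highest for 35. Groups without overlap were counted too: every knockout-labelled array lay below every wild-type array for 32 members (30.8%) and above for 1, Zfp212, against 12.1% and 11.9% of all tested probe sets. A difference of at least 2-fold without overlap was found for 6 tested members, all lower (Zfp53, Zfp90, Zfp113, Zfp148, Zfp654 and Zfp959), against 1.6% of all tested probe sets lower and 0.744% higher by that rule.

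**Figure D2:**
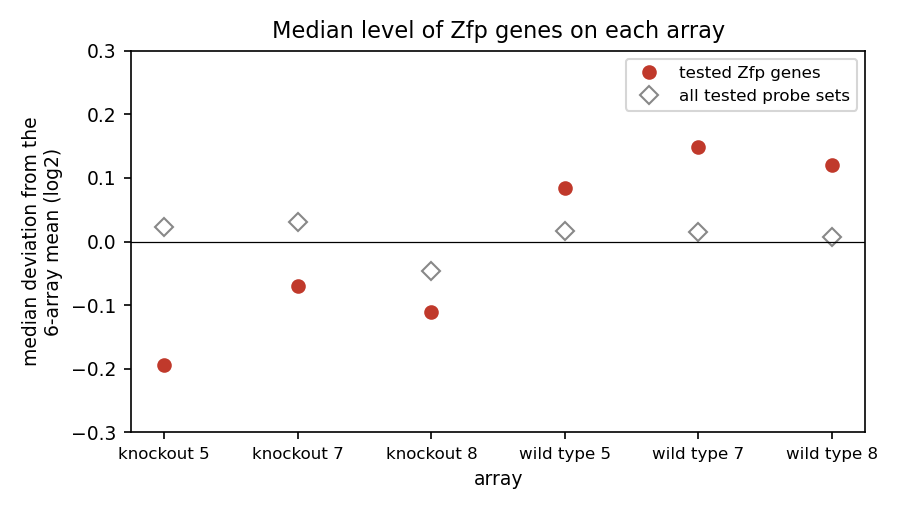
Median deviation from the 6-array mean (log2, vertical axis) of the 104 tested Zfp genes (filled circles) and of all 13575 tested probe sets (open diamonds) on each array (horizontal axis). The Zfp medians run from -0.19 to -0.07 on the knockout-labelled arrays and from 0.08 to 0.15 on the wild-type arrays, while the medians of all probe sets stay between -0.05 and 0.03.

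Promoter windows are shown for 4 of the genes that fell, because the sites of Gfi1, the gene named in the group's label, hold AATC. The windows come from RefSeq (build GRCm38.p6) and run from 250 bases before to 50 after an annotated gene start, 5′ to 3′ on the gene's strand. Capitals mark the core AATC or its reverse complement GATT. Zfp53 lies at chr17:21488738-21489037 on the plus strand, Zfp959 at chr17:55891843-55892142 on the plus strand, Zfp871 at chr17:32788238-32788537 on the minus strand (1 of its 2 windows), and Zfp113 at chr5:138155695-138155994 on the minus strand.
Zfp53: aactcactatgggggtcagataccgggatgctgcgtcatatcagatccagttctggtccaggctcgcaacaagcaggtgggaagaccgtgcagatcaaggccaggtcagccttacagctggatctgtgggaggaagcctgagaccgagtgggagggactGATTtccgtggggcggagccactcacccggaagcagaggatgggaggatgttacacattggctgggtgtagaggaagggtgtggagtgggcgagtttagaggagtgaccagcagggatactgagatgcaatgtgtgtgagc
Zfp959: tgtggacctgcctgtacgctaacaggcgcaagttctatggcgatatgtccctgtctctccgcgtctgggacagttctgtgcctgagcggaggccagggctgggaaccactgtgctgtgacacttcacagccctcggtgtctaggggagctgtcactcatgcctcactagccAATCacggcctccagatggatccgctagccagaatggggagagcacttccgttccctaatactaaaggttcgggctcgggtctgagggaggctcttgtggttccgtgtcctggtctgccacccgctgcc
Zfp871: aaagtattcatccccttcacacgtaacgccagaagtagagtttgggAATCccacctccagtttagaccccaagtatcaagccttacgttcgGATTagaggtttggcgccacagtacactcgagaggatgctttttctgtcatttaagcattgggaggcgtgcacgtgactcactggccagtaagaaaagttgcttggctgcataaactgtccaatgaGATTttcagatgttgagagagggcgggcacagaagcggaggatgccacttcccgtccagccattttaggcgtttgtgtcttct
Zfp113: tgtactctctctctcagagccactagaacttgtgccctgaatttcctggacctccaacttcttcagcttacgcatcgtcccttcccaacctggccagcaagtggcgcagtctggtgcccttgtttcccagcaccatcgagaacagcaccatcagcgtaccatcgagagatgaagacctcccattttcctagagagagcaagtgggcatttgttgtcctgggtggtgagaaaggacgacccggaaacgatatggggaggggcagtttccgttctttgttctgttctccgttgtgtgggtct
The core was found 1, 1, 3 and 0 times in these windows. It is short and common: 73.1% of the 32851 windows searched, from 27025 genes, held it on either strand. The search left out the windows of 1 chromosome, and it did not cover every gene or member. Among the genes that fell, Zfp90 had no window in it. The core was also in 77.9% of the 154 windows of 126 members and in 8 of the 10 windows of 6 of the genes that fell. The longer motif AAATCAC, searched on both strands and itself holding the core, was in 0 of those 10 windows, in 3 (1.95%) of the member windows and in 3.2% of all windows. The members with a match were Zfp235 and Zfp428, which were too dim to be tested, and Zfp472, at -0.19 ± 0.20 (SE). A match is a description of the letters and not a site.

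Zfp53 gave signals of 637, 656 and 1246 in the knockout-labelled samples, whereas wild-type signals were 1946, 1674 and 2004. The wild-type arrays were close together, and knockout array 8 stood between them and the others. Zfp53 fell by 1.20 ± 0.25 (SE, log2 scale; means 846 ± 346 and 1874 ± 176, SD, n = 3 each; limma adjusted p = 0.0191). Zfp871 gave 4263, 4341 and 4014 on the knockout-labelled and 6426, 8448 and 6734 on the wild-type arrays. It varied little within either group and fell by 0.76 ± 0.16 (limma adjusted p = 0.0193). It alone of the 7 also passed when all 22626 probe sets were tested without the brightness filter.

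Zfp959 had the lowest difference of the 104 tested members. Its signals were 295, 243 and 267 on the knockout-labelled arrays and 837, 1191 and 430 on the wild-type arrays, so that the wild-type arrays were spread widely and the knockout-labelled ones were not. It fell by 1.44 ± 0.32 (limma adjusted p = 0.0244). Zfp113 gave 144, 187 and 227 on the knockout-labelled arrays, the first of which was below the control level of that array, and 494, 363 and 520 on the wild-type arrays. It fell by 1.24 ± 0.28 (limma adjusted p = 0.0269). Zfp90, a KRAB zinc finger gene, gave 355, 417 and 432 against 670, 865 and 1001. Both groups were compact, and Zfp90 fell by 1.03 ± 0.23 (limma adjusted p = 0.0244).

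Zfp148 encodes ZBP-89, a Krüppel-type factor that binds GC-rich promoter elements. Its brightest probe set gave 459, 358 and 337 on the knockout-labelled arrays and 697, 1313 and 659 on the wild-type arrays, where array 7 stood high. By that probe set it fell by 1.12 ± 0.27 (limma adjusted p = 0.0404). Its other two tested probe sets stood at -0.38 ± 0.27 and -0.32 ± 0.29 (adjusted p = 0.485 and 0.591), and the mean of its 4 probe sets stood at -0.59 with an adjusted p of 0.234. Zfp982 gave 1341, 1296 and 939 against 2914, 1711 and 2226, without overlap, and fell by 0.91 ± 0.22 (limma adjusted p = 0.0411). Its only probe set is of a kind marked as able to bind other transcripts (identifier ending in _x_at), so the level may include related genes, and the limma adjusted p was 0.0609 after median centring, 0.0576 after quantile normalization and 0.0522 after cyclic loess.

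**Figure D3:**
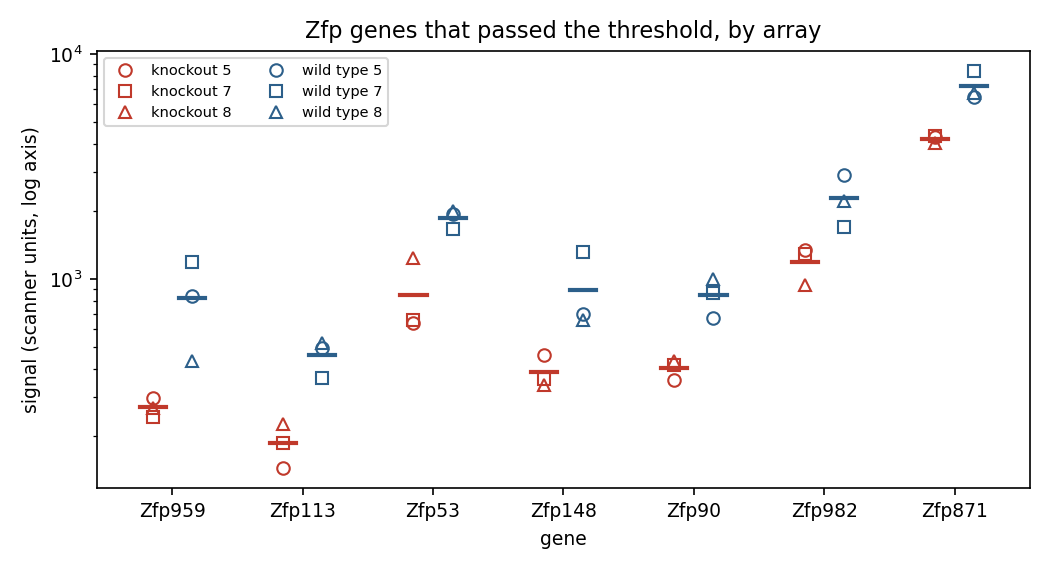
Signals in scanner units (log vertical axis) of the 7 Zfp genes that passed the threshold (horizontal axis) on each array, with symbols for sample numbers 5, 7 and 8 and bars for the group means (n = 3 each). All 3 knockout-labelled arrays lie below all 3 wild-type arrays for each gene, for example 243 to 295 against 430 to 1191 for Zfp959.

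The calls of single genes depended on the arrays used. Leaving out 1 array at a time, limma called 1, 0 and 1 members lower when the array left out was a knockout-labelled one (5, 7 or 8) and 7, 1 and 4 when it was a wild-type one, while 18 to 24 were lower and 0 or 1 higher at an unadjusted p under 0.05. The 7 called without wild type 5 were not the same 7, since Zfp113, Zfp959 and Zfp982 were not among them. Of 13575 tested probe sets, these 6 fits called 90 to 282 lower and 34 to 266 higher (297 and 196 with all arrays). Zfp53 and Zfp871 each passed in 3 of these 6 fits, Zfp148 in 2, Zfp90, Zfp959 and Zfp982 in 1 and Zfp113 in 0, with limma adjusted p-values up to 0.191 (Zfp148), and the differences of all 7 stayed at -0.64 or lower. With eBayes without trend, 2 members passed, and without the brightness filter 1.

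Zfp654 and Zfp638 joined the 7 when the sample number was a block. Zfp654 gave 209, 214 and 271 on the knockout-labelled arrays and 367, 464 and 861 on the wild-type arrays, a difference of -1.15 ± 0.31 (limma adjusted p = 0.0586, and 0.0274 with the block). Zfp638 is a nuclear DNA- and RNA-binding protein also known as NP220. It gave 3105, 2860 and 3539 against 4082, 5376 and 5240, a difference of -0.62 ± 0.17 (adjusted p = 0.0640, and 0.0438 with the block), but its second probe set stood at -0.14 ± 0.28. For both genes the groups did not overlap. The 18 members with an unadjusted p under 0.05 that did not pass had limma adjusted p-values between 0.0586 and 0.228, and the groups did not overlap for 16 of them. These 18 were picked by a small p, which goes with groups that do not overlap, so the 16 are not separate evidence. The share without overlap among all probe sets with such a p is not given here.

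Among members with a known part in chromatin silencing, Zfp445, a KRAB protein that protects methylation at imprinted regions, gave 1283, 1215 and 1000 on the knockout-labelled arrays and 1645, 2045 and 1528 on the wild-type arrays. The groups did not overlap, and the difference was -0.57 ± 0.19 (limma adjusted p = 0.126). By the second probe set of Zfp445, an _s_at one, the groups overlapped, with a difference of -0.28 ± 0.23 (limma adjusted p = 0.554). Zfp57, the better known partner of Zfp445 in that role, did not exceed the control level on any array. Zfp281, a repressor of pluripotency genes, stood at -0.31 ± 0.21 (adjusted p = 0.467).

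Of the members tied to blood progenitors and signalling, none of the 5 tested passed the limma threshold. Zfp521 (Evi3), a cofactor found in early haematopoietic cells, gave 899, 701 and 735 against 1005, 1113 and 1004. The groups did not overlap, yet the difference was only -0.42 ± 0.20 (limma adjusted p = 0.259). Its relative Zfp423, a partner of early B cell factor, did not exceed the control level on any array. Zfp110, which binds the neurotrophin receptor p75, stood at -0.54 ± 0.18 (adjusted p = 0.119) by an _x_at probe set and at -0.19 ± 0.22 (0.703) and -0.53 ± 0.28 (0.335) by the others. Its relative Zfp369 did not exceed the control level on any array. Zfp292 stood at -0.50 ± 0.19 (adjusted p = 0.161), and its 3 dimmer probe sets at -0.93, -0.72 and -0.49, all below 0 as well. Zfp91, an atypical ubiquitin ligase of the NF-κB pathway, stood at -0.32 ± 0.17 by its brightest probe set and at 0.26 ± 0.18 by the next. Zfp131, a BTB zinc finger gene, stood at -0.37 ± 0.27. Zfp42 (Rex1), a marker of pluripotent cells, exceeded the control level on 1 array, wild-type array 7, with 127 scanner units.

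Several members with functions outside DNA binding had differences near 0. Zfp622, needed to mature the large ribosomal subunit, gave 15610, 15450 and 14210 on the knockout-labelled arrays and 15440, 16990 and 12720 on the wild-type arrays. The groups overlapped, with a difference of 0.01 ± 0.14 (limma adjusted p = 0.979). Zfp207 (BuGZ), a spindle and kinetochore protein, stood at -0.02 ± 0.22 by its brightest probe set, while its other 3 tested probe sets lay between -0.51 and -0.13. Zfp326, which acts in splicing, stood at -0.06 ± 0.21 and Zfp330 at -0.06 ± 0.25. The differences of these 4 brightest probe sets changed sign in some of the alternatives. Zfp106, an RNA-binding protein, stood at 0.33 ± 0.21 (limma adjusted p = 0.416), and at 0.045 over all its probe sets, of which 3 were tested. Of 36 genes picked for a known role, whatever their values, 27 were measured and 20 tested. Of these 20, 16 lay below 0, against 51.1% of all tested probe sets. By limma 1, Zfp148, fell, against 2.19% of all tested probe sets.

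No member rose. Among the tested members the largest positive difference was that of Zfp524, with 486, 365 and 286 on the knockout-labelled arrays and 291, 208 and 311 on the wild-type arrays. The groups overlapped, and the difference was 0.45 ± 0.28 (limma adjusted p = 0.409), the lowest adjusted p among the 25 tested members above 0. Dimmer members reached further in both directions without a test. Zfp467, chosen after its values were seen, gave 22.4, 34.2 and 185 against 270.3, 244 and 352. Of these, 22.4 and 34.2 lay below the control levels of their arrays. The other probe set of Zfp467, also not tested, gave 195, 28.1 and 113 against 138, 207 and 136, with overlap and a difference of -0.71. In the other direction Zfp92 lay highest at 0.92, with overlap. Zfp212, Zfp213, Zfp362 and Zfp787 stood at 0.17 ± 0.18, 0.24 ± 0.19, 0.23 ± 0.20 and 0.38 ± 0.35. For Zfp212, with 1345, 1152 and 1105 against 1081, 1053 and 1063, the groups did not overlap.

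Within the groups, the median SD of a tested member was 0.29 on the log2 scale, beside 0.26 for all tested probe sets. Zfp991 had the widest spread, at 1.53, with 282, 3306 and 3190 on the knockout-labelled arrays and 1207, 3199 and 3479 on the wild-type arrays. It was low on the array numbered 5 in both groups and the groups overlapped, with a difference of -0.70 ± 0.70 that became 0.45 without knockout 5. Zfp112 and Zfp975 followed with within-group SDs of 0.88 and 0.65. Zfp112 was at 67 scanner units on wild-type array 7, below its control level, and at 439 on wild-type array 5, and its difference of 0.31 ± 0.48 became -0.32 without wild type 7. Zfp975 stood at -0.86 ± 0.36 (limma adjusted p = 0.209).

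Probe sets of the same gene were compared where several were tested, which was so for 23 members. In 14 of them all probe sets lay below 0, in 0 all lay above, and in 9 the signs differed. The widest gaps were those of Zfp787 (-0.57 to 0.38), Zfp991 (-0.70 to 0.15), Zfp148 (-1.12 to -0.32) and Zfp644 (-0.56 to 0.10). A value from 1 probe set is therefore not the value of every transcript of its gene. Zfp644 illustrates this, since its brightest probe set, one that can bind several transcripts (_s_at), stood at 0.10 ± 0.21 and the next at -0.56 ± 0.32.

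Neighbouring members were then read together, using the gene order of RefSeq's GRCm38.p6 table, in which all 156 members were found. Their sequences were not compared, so which neighbours are duplicates was not examined. With at most 5 other genes between them, 72 members formed 24 groups of neighbours, 7 of which had at least 3 tested members. In the group of Zfp54, Zfp51, Zfp53, Zfp52 and Zfp948, the 4 tested members lay below 0, with a median of -0.44. Besides Zfp53, Zfp52 stood at -0.54 ± 0.19 (limma adjusted p = 0.134), Zfp51 at -0.34 ± 0.23 and Zfp54 at -0.27 ± 0.28. In the group of Zfp820, Zfp942 and Zfp943 all 3 lay below 0, with a median of -0.58, and in that of Zfp397, Zfp35 and Zfp24 too, with a median of -0.55.

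The group of Zfp568, Zfp14, Zfp82 and Zfp566 had 3 of 3 tested members below 0, with a median of -0.23. The other 3 groups had medians nearer 0. The 5 tested genes of the group from Zfp553 to Zfp689 had a median of 0.03 with 2 below 0. The 4 tested genes of the group from Zfp112 to Zfp94 had a median of 0.03 with 1 below 0, and the 4 of the group from Zfp398 to Zfp746 a median of 0.11 with 1 below 0. These genes were chosen by their place and not by the rule for named genes. Differences between groups of neighbours were not tested, and near-identical copies may share probes. Members with a neighbour had a median of -0.22 (43 tested, 1 fell) and members without one -0.21 (61 tested, 6 fell). Of all tested probe sets, 2.19% were called lower.

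**Figure D4:**
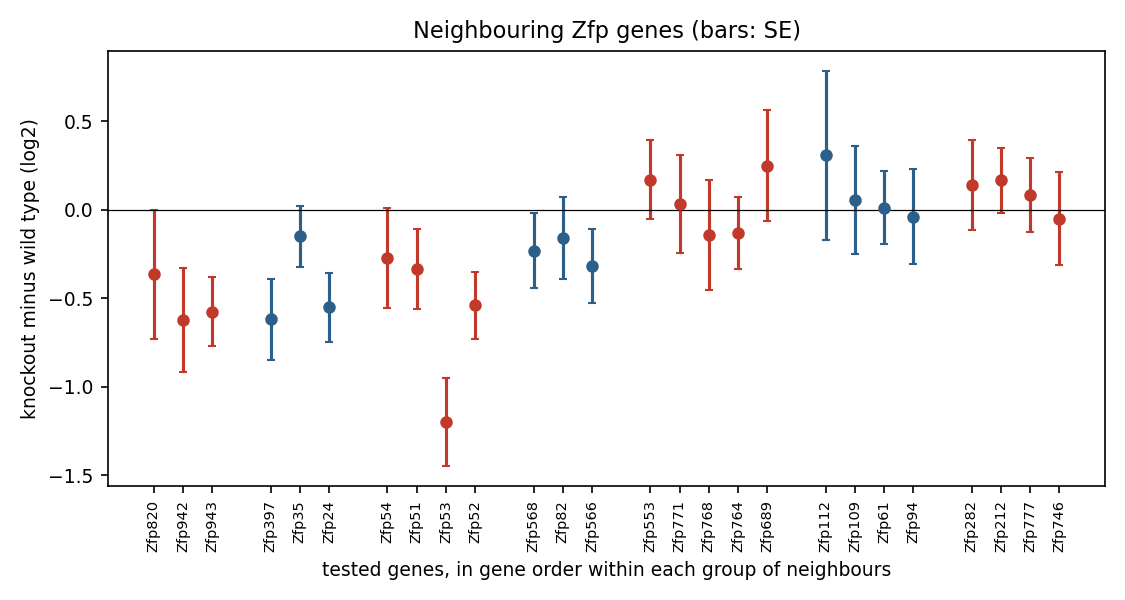
Differences (knockout-labelled minus wild type, log2, vertical axis) with SE bars for the 7 groups of neighbouring Zfp genes with at least 3 tested members, in gene order within each group (horizontal axis) and with colours alternating between groups. The groups at the left have medians down to -0.58, and Zfp53 is the lowest single gene at -1.20, while the 3 groups at the right lie near 0.

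The partners through which KRAB zinc finger proteins act were read in the same way. Of a list of 38 genes of the KAP1, SETDB1, HP1, NuRD, HUSH and DNA methylation machinery, 29 were measured and 28 tested. At a limma adjusted p under 0.05, 0 rose and 0 fell, and at an unadjusted p under 0.05, 1 was higher and 3 (10.7%) were lower, beside 10.5% of all tested probe sets lower. With the sample number as a block 0 passed as well. The median was 0.00, and 14 of the 28 lay below 0. Whether the list differs from the Zfp genes was not tested. Trim28, which encodes KAP1, gave 14600, 13020 and 13510 on the knockout-labelled arrays and 11060, 12140 and 12390 on the wild-type arrays. The groups did not overlap, and the difference was 0.21 ± 0.13 (adjusted p = 0.430). Setdb1, the methyltransferase, stood at 0.03 ± 0.18. The smallest p-values were those of Uhrf1, needed for maintenance DNA methylation, at 0.68 ± 0.22 (adjusted p = 0.109), Morc3 at -0.49 ± 0.17 (0.121), Mphosph8, a HUSH subunit, at -0.44 ± 0.18 (0.193; -0.099 without its _s_at probe set) and Trim33 at -0.37 ± 0.15 (0.202).

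Other zinc finger families that bear different names gave differences below 0 too. All 8 tested Zscan and Zkscan genes, many of which share the SCAN dimerization domain, lay below 0, with a median of -0.41 and 0 calls in limma (3 lower and 0 higher at an unadjusted p under 0.05, and 0 with the block). Of all tested probe sets, 51.1% lay below 0, and 10.5% were lower and 9.08% higher at that unadjusted p. Of 15 tested Zbtb genes, whose proteins pair C2H2 fingers with a BTB domain, 10 lay below 0, with a median of -0.35, or -0.17 without the probe sets that can bind several transcripts. Beside 2.19% of all tested probe sets called lower and 1.44% higher, 1 Zbtb gene fell and 0 rose. It was Zbtb20, chosen after its values were seen, with 591, 497 and 440 on the knockout-labelled arrays and 1237, 2263 and 1497 on the wild-type arrays, a fall by 1.64 ± 0.24 (limma adjusted p = 0.00257). Whether these families differ from the Zfp genes was not tested.

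Several properties of the arrays moved with the groups and belong beside these results. Neutrophil markers were lower, with 5 of 9 tested genes down (7 with the sample number as a block) and 1 up and a summed signal of 7320 to 14700 on the knockout-labelled arrays against 20710 to 41980 on the wild-type arrays. Monocyte and macrophage markers were higher, with 4 of 12 tested up and 0 down and a summed signal of 40150 to 49650 against 24050 to 31990. Erythroid markers had 1 of 6 tested genes down, Car2, and a summed signal of 7451 to 10160 against 17270 to 29840. Without Car2, a choice made after seeing the data, the sums were 4128 to 5241 against 4945 to 12790 and overlapped. B and plasma cell markers (0 of 7 changed in limma, with 1 lower and 0 higher at an unadjusted p under 0.05; Blnk passed with the block) and T and NK cell markers (1 of 3 tested down, Klrd1) had summed signals that overlapped between the groups. The Gapdh control ratio of 3′ over 5′ signal, a sign of RNA integrity, was 4.30 to 6.11 on the knockout-labelled and 4.44 to 5.73 on the wild-type arrays, and those ranges overlapped. The part of cell composition in the Zfp differences was not tested, and in bulk RNA fewer cells of a type and less RNA per cell cannot be told apart. The summed Zfp signal itself was 118700 to 134100 on the knockout-labelled and 145200 to 169900 on the wild-type arrays. Members above the control level numbered 113, 111 and 124 of 156 on the knockout-labelled and 118, 128 and 124 on the wild-type arrays. That level differed between arrays, at 153.6, 157.8 and 100.2 on the knockout-labelled and 161.6, 107.2 and 104.1 on the wild-type arrays. Of all probe sets, 68.1%, 67.0% and 71.2% exceeded it on the knockout-labelled and 67.6%, 74.4% and 73.4% on the wild-type arrays. Over all arrays 102 members exceeded it on each of the 6 and 18 on none.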

How the data were processed

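Per the submitters' processing notes, the authors made the deposited intensity values with MAS5, 1 linear signal per probe set and array. The sources used here name no version or setting for it. The 2% trimmed mean of each column was 1000.33 to 1000.37, so the arrays had been scaled alike. The labels describe sorted cells and 2 rounds of amplification, which weights signals to the 3′ end.

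From these values log2(signal + 16) was computed. The 64 control probe sets were left out, and the 60% of the other 22626 with the highest mean log2 value, 13575 with a signal above about 198, were fitted with limma 3.58.1 in R 4.3.3 (lmFit, eBayes with trend, two-sided, all 6 arrays). Adjustment was by Benjamini-Hochberg over the 13575, at a threshold of 0.05, and differences carry the SE of that fit. The control level is the brightest of 27 Bacillus control probe sets on an array, 100.2 to 162. On simulated data the fit was tested before use. Correlations of the deviations from group means were 0.159, 0.168 and 0.238 between arrays numbered 5, 7 and 8 in the labels and -0.134 to -0.0307 otherwise. Arrays that share a number thus varied together, but the labels state no pairing. The main fit, which gave the SEs and calls, did not pair the samples. A second fit took the number as a block, and it is given beside results it changes. The number of arrays limits the precision.

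Named genes were Gfi1, members past the threshold, the 8 smallest p-values in each direction, 36 members with known roles, the 3 largest within-group SDs, the 4 widest gaps between probe sets and 6 corepressor genes; some are given within counts. Members and lists were chosen with earlier results of these data known. Probe set names come from the platform annotation, which can be old. Alternatives are given in the closing section. The search for the core AATC was added after the counts of the longer motif were seen. The planned split by KRAB box was not analysed here.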

Additional observations from a re-analysis of the deposited data

How the results depend on the processing

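The median of the tested Zfp genes stayed below that of all tested probe sets, and none of the members was called higher, under each of the 18 alternatives. It ran from -0.28 to -0.22 with 1 array left out and was -0.16 with median centring. The median of all probe sets was then -0.03 to 0.02 and 0.047. Median centring, the replicate block and eBayes without trend cannot change the gap between these medians, so they are no check of it. The median of all 156 members ran from -0.23 to -0.19 with 1 array left out and was -0.16, -0.15 and -0.16 with a pseudocount of 64, median centring and quantile normalization.

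Members called lower numbered 2 with eBayes without trend, 1 without the brightness filter and 0 to 7 with 1 array left out. Members at an unadjusted p under 0.05 that were higher numbered 1 with the replicate block and 0 to 1 with 1 array left out. All probe sets called higher and lower numbered 57 and 124 with eBayes without trend, 69 and 119 without the brightness filter, 320 and 479 with the replicate block, and 34 to 266 and 90 to 282 with 1 array left out, and 193 were lower with median centring. The replicate block changed the calls of Zfp654 and Zfp638 and no other call among the members named. A fit with fewer arrays has fewer degrees of freedom; the cause of each lost call was not tested.

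The corepressor median was 0.058 with median centring and -0.064 to 0.091 with 1 array left out, so it has no direction. The Zbtb median was -0.17 without the _s_at and _x_at probe sets and -0.32 to -0.18 with 1 array left out. The Zscan and Zkscan median was -0.31 above the Bacillus control on 3 arrays, -0.57 for the brightest 40%, -0.25 without the filter, -0.30 without the _s_at and _x_at probe sets and -0.51 to -0.31 with 1 array left out. Genes near 0 changed sign. Zfp622 was -0.016 with cyclic loess, -0.11 over all its probe sets and -0.23 without the _s_at and _x_at probe sets. Zfp644 was -0.59 over all its probe sets and -0.56 without the _s_at and _x_at ones, and Zfp207 was 0.037 with median centring and -0.43 over all its probe sets. Means over all probe sets give equal weight to dim ones that were not tested. For Zfp644 these include 1 at -1.52, above the control level on 1 array. For Zfp207 they include 1 at -1.03, above that level on 0 arrays. Over all probe sets of each gene, Zfp91 was -0.019, Zfp281 -0.20, Zfp638 -0.38, Zfp787 0.040 and Zfp991 -0.28, and Zfp110 was -0.19 without its _x_at probe set. With 1 array left out, Zfp622 ran from -0.10 to 0.105, Zfp644 from -0.093 to 0.31, Zfp207 from -0.18 to 0.20, Zfp326 from -0.22 to 0.12, Zfp330 from -0.33 to 0.23, Setdb1 from -0.074 to 0.090, Zfp112 from -0.32 to 0.91 and Zfp991 from -1.29 to 0.45. The split by KRAB box was not run. Signals near the control level limit the 52 members not tested.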

Other observations

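Zfp-like symbols that the naming rule leaves out were read as well, chosen after their values were seen. Zfp36l1 and Zfp36l2, which encode proteins that bind AU-rich mRNA and speed its decay, fell by 0.996 ± 0.17 and by 0.60 ± 0.14 on the log2 scale (limma adjusted p = 0.00651 and 0.0307), with means of 1704 against 3429 and of 13110 against 20020 scanner units. Zfp36 itself stood at -0.61 ± 0.23 (adjusted p = 0.161). Zfpm1 (FOG1), the GATA1 cofactor of megakaryocyte and erythroid cells, stood at 0.09 ± 0.27.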
